A study of Mus musculus with 16 samples.

Results

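Long intergenic noncoding RNAs (lincRNAs) expressed in TCF1+CD8+ T cells are the subject of these measurements. They were selected on their level: a gene that the count table annotates as lincRNA was included if its mean over all 16 samples reached 2 CPM (the count of a gene divided by the summed count of its sample, on the usual CPM scale). The snoRNA host genes, whose names begin with Snhg, and Gas5 were left out, which removed 3 genes. This gave 147 of the 54532 genes in the table, out of 5559 lincRNA genes, of which 1770 had a count in any sample. The mean level chose the members and is given below only as a description. Gm26694 (2.01 CPM), E130102H24Rik (2.09 CPM) and A630091E08Rik (2.10 CPM) lay just inside the limit, and C130083M11Rik (1.99 CPM), Gm33682 (1.96 CPM) and 1700096K18Rik (1.95 CPM) just outside it. All 147 had a count in every sample and passed the filter on low counts of every comparison. In 7 of them the mean fell below 2 CPM when the group with the highest level was set aside. Among these were 4833407H14Rik, highest in stimulated PGE2 cells, and Gm43698 and E130102H24Rik, highest in unstimulated PGE2 cells.

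RNA was sequenced from CD8+ T cells of C57BL/6J mice, taken from the spleen as naive cells and differentiated in vitro over 4 days with repeated activation, which gave antigen-experienced cells that keep TCF1, a transcription factor of stem-like T cells. All cultures then spent 4 h in low-dose IL-2 (85 U/ml), after 1 h with or without prostaglandin E2 (PGE2, 100 ng/ml), a lipid mediator that raises cAMP in T cells. The 4 groups, with 4 replicates each, were unstimulated untreated cells (IL-2 alone), unstimulated PGE2 cells (PGE2, then IL-2), stimulated untreated cells (IL-2 with 1 anti-CD3/CD28 bead per cell) and stimulated PGE2 cells (PGE2, then IL-2 and beads). The cells model a cultured state and not cells from a tumour, and IL-2 was present in unstimulated cultures too. What cultures with the same replicate number share is not given in the sources used here, so p-values measure the spread between these cultures, which may be technical.

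LincRNAs are transcribed by RNA polymerase II, are often spliced and polyadenylated, and encode no long protein. Some stay in the nucleus and organize chromatin or nuclear bodies, others are the precursors of microRNAs, and for many no function is known. In T cells the best described are host transcripts of microRNAs that tune activation, which are cut by the microprocessor in the nucleus, and transcripts beside cytokine genes.

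The summed count of a sample was 22678254 to 42950763. Markers matched the label, since those of CD8+ T cells summed to 2345 to 4342 CPM over 6 genes, while 6 myeloid markers summed to 0.179 to 0.489 CPM and 5 erythroid markers to 0.0815 to 0.736 CPM. Among the CD8+ T cell markers, Tcf7, the gene of TCF1, was lower in stimulated cells. Its mean was 1218 CPM in unstimulated untreated, 1258 CPM in unstimulated PGE2, 287 CPM in stimulated untreated and 396 CPM in stimulated PGE2 samples. The 5 B cell markers summed to 10.3 to 22.2 CPM in unstimulated and 4.16 to 11.0 CPM in stimulated samples, and the 3 CD4+ T cell markers to 5.04 to 10.1 CPM. The 3 NK cell markers rose from 5.94 to 24.1 CPM in unstimulated to 36.8 to 156.5 CPM in stimulated samples through Eomes, which activated CD8+ T cells also express. The part of these cells in the results was not tested. In bulk RNA, fewer cells of a type and less RNA per cell cannot be told apart.

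Several members are precursors of microRNAs, and 9 hold annotated microRNA genes. The mature sequences of the 4 hosts described first are shown because these are the products by which the hosts are known (RefSeq, GRCm38.p6), with the seed, bases 2 to 8, in capitals. The libraries measured the host transcript and not the mature microRNA. Mir155hg holds 1 microRNA gene, whose guide strand is
miR-155-5p: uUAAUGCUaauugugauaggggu
at chr16:84714143-84714165 on the plus strand. Mir17hg holds 6 microRNA genes within chr14:115043684-115044496 on the plus strand, of which miR-17-5p and miR-20a-5p share 1 seed and miR-19a-3p and miR-19b-3p another, while miR-18a-5p and miR-92a-3p have seeds of their own.
miR-17-5p: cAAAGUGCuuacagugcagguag
miR-20a-5p: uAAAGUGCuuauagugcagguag
miR-18a-5p: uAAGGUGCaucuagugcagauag
miR-19a-3p: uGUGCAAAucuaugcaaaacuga
miR-19b-3p: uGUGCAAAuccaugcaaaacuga
miR-92a-3p: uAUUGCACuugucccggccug
AL805899.1, a gene without a symbol of its own, holds Mir31, with its miR-31-5p at chr4:88910614-88910635 on the minus strand, and Mir142hg holds Mir142, with its miR-142a-3p at chr11:87756903-87756925 on the plus strand.
miR-31-5p: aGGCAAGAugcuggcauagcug
miR-142a-3p: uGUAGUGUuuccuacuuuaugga

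The 147 lincRNAs together took 0.432% to 0.499% of the counts in unstimulated untreated, 0.458% to 0.484% in unstimulated PGE2, 0.345% to 0.422% in stimulated untreated and 0.366% to 0.432% in stimulated PGE2 samples. The share was lower in all 4 stimulated untreated samples than in all 4 unstimulated untreated ones, and lower in all 4 stimulated PGE2 samples than in all 4 unstimulated PGE2 ones. The PGE2 and untreated ranges overlapped in each state. The set was uneven, since 10 members exceeded 100 CPM, 47 reached 10 CPM, and 100 lay between 2 and 10 CPM. Most are uncharacterized, as 123 carry provisional names. Their median length was 2322 bases, against 4482 for protein-coding genes at the same CPM limit, and their median level 2.77 FPKM against 8.61 FPKM (fragments per kilobase of gene length scaled for depth, as the authors derived it, which allows levels of different genes to be compared).

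Per length, AW112010 was the most abundant member, with a mean of 374 FPKM over the 16 samples, ahead of Mir142hg (238 FPKM). Gm10076 (80.6 FPKM), Gm44174 (75.2 FPKM), Gm42047 (73.9 FPKM) and Epb41l4aos (73.6 FPKM) followed within a narrow range. This ranking depends on the annotated length, which is short in Gm44174. Malat1, a nuclear RNA that gathers at splicing speckles, had 32.2 FPKM, Xist, which coats the inactive X chromosome, 40.6 FPKM, and Neat1, the scaffold of paraspeckles, 16.5 FPKM. Xist had the most counts of any member (mean 766 CPM). Gm26917 (63.4 FPKM) was spread widely within groups, from 132 to 373 CPM in unstimulated untreated samples.

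Stimulation changed most of the lincRNAs, and more fell than rose. Without PGE2, 31 of 147 rose and 68 fell (edgeR's quasi-likelihood test, adjusted p below 0.05), whereas over all genes tested 31.7% rose and 34.8% fell. With PGE2, 36 rose and 55 fell, against 32.5% and 31.7% of all genes. The median log2 fold change of the members was −0.27 without PGE2, where that of all genes was −0.03, and −0.19 with PGE2, where that of all genes was 0.00. DEGs, which also needed a fold change of at least 2, numbered 13 higher and 28 lower without PGE2 (11.5% and 11.7% of all genes) and 16 higher and 20 lower with PGE2 (12.7% and 9.44%). The members' share of rises lay at or below that of all genes in the first comparison, and their share of falls above it.

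The largest rises were those of microRNA hosts. Mir155hg (ENSMUSG00000097418, chr16:84703167-84715245), which gives rise to miR-155, a microRNA induced by antigen receptor signals, had 4.54, 5.13, 5.46 and 10.2 CPM in replicates 1 to 4 of unstimulated untreated cells and 93.5, 108, 89.0 and 72.3 CPM after stimulation. With PGE2 it had 5.30, 6.30, 6.91 and 8.92 CPM in unstimulated and 98.0, 99.4, 79.5 and 53.2 CPM in stimulated samples. The lowest stimulated sample thus lay above the highest unstimulated one in both settings. The log2 fold change was 3.99 without PGE2 (SE 0.225, adjusted p = 2.90e-08 by edgeR) and 3.75 with PGE2 (SE 0.240, adjusted p = 1.28e-06 by edgeR).

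Mir17hg (ENSMUSG00000089726, chr14:115042879-115046727), the host of the miR-17-92 cluster, known for its part in lymphocyte proliferation, had 15.5, 20.9, 12.6 and 22.3 CPM in unstimulated untreated cells and 115, 120.4, 69.7 and 83.8 CPM after stimulation (log2 fold change 2.61, SE 0.216, adjusted p = 3.98e-07 by edgeR). With PGE2 it had 5.33, 8.47, 5.20 and 9.22 CPM in unstimulated and 124, 111, 57.1 and 48.2 CPM in stimulated samples (log2 fold change 3.77, SE 0.361, adjusted p = 7.59e-06 by edgeR). The unstimulated PGE2 samples were below all others, whereas the stimulated groups overlapped. AL805899.1, the host of Mir31, rose by 3.70 without PGE2 (SE 0.409, adjusted p = 4.98e-06 by edgeR) and by 3.82 with it (SE 0.487, adjusted p = 5.16e-05 by edgeR) on the log2 scale. Its counts were low, at 8 to 32 per unstimulated sample and 92 to 467 per stimulated sample.

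Not all hosts rose. Mir142hg, whose microRNA is found across blood cells, fell from 78.8 ± 4.88 to 54.8 ± 3.67 CPM without PGE2 (SD, n = 4) and from 79.5 ± 9.50 to 57.5 ± 6.00 CPM with PGE2, at log2 fold changes of −0.38 (SE 0.0638, adjusted p = 0.000189 by edgeR) and −0.32 (SE 0.0917, adjusted p = 0.0101 by edgeR). The groups did not overlap. Of the other 5 hosts, 2900076A07Rik (Mir1839, −0.56) and E130102H24Rik (Mir101a, −0.62) fell without PGE2. Ftx (Mir374b and Mir421), Gm26532 (Mir24-2) and 6720427I07Rik (Mirlet7d) passed the test in neither stimulation comparison, although Gm26532 without PGE2 did so with the replicate number as a block (0.30, adjusted p = 0.0367 by edgeR).

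**Figure D1:**
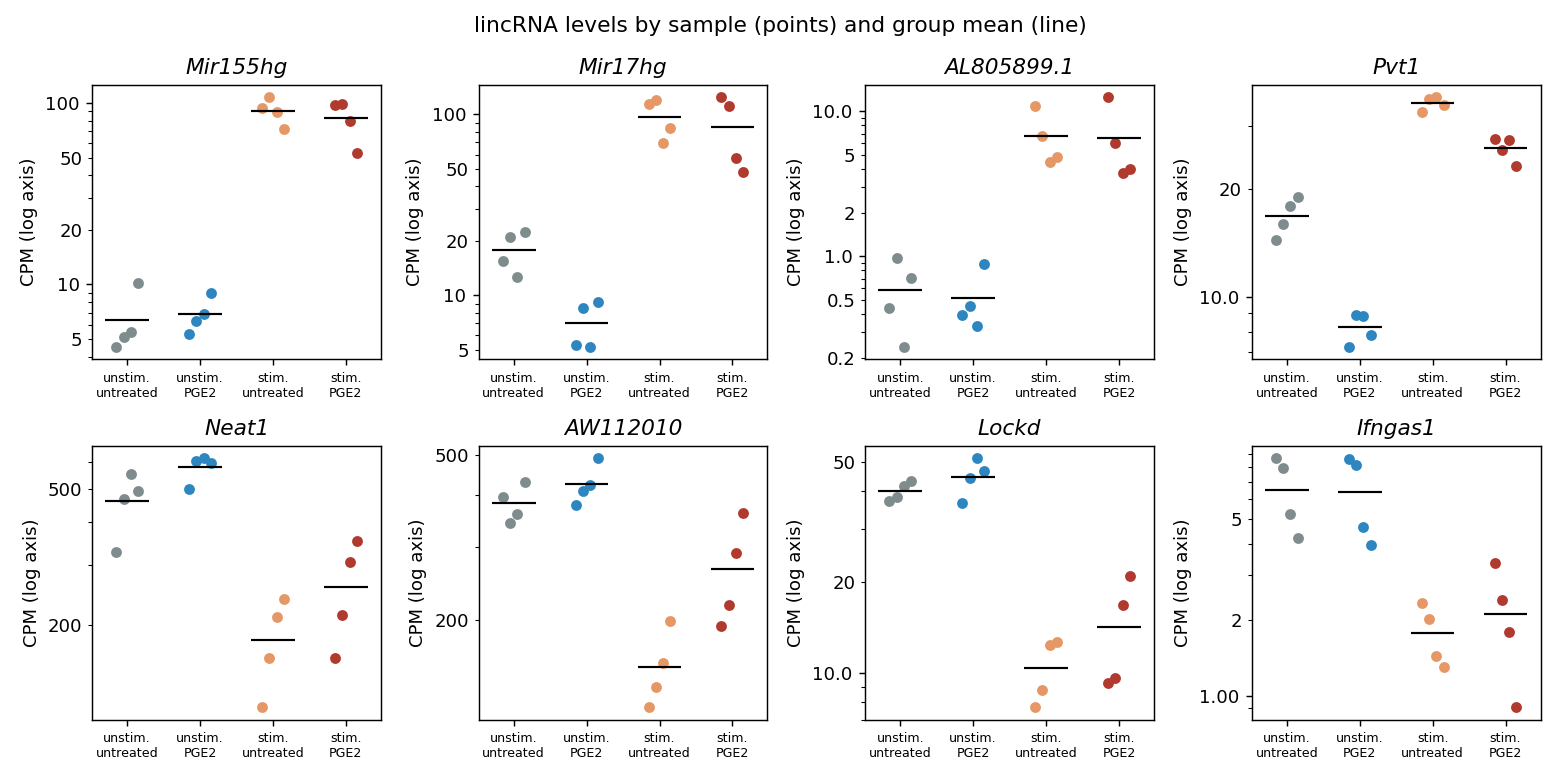
Levels of 8 lincRNAs in CPM (log axis) in the 4 groups, with 1 point per sample and a line at the group mean. The microRNA hosts Mir155hg, Mir17hg and AL805899.1 and Pvt1 lie higher in stimulated cells, while Neat1, AW112010, Lockd and Ifngas1 lie higher in unstimulated cells.

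Pvt1 (ENSMUSG00000097039, chr15:62037986-62378096) lies 52.6 kb from Myc, the gene of a transcription factor for growth, and was called in all 4 pairwise comparisons. It had 14.4, 15.99, 17.9 and 18.98 CPM in unstimulated untreated cells, 7.26, 8.92, 8.85 and 7.81 CPM with PGE2, 32.7, 35.6, 35.9 and 34.2 CPM in stimulated untreated cells, and 27.6, 25.6, 27.4 and 23.2 CPM in stimulated PGE2 cells. No 2 groups overlapped. Stimulation raised it by 1.19 without PGE2 (SE 0.0889, adjusted p = 1.79e-07 by edgeR) and by 1.82 with PGE2 (SE 0.113, adjusted p = 1.19e-06 by edgeR), and PGE2 lowered it by 1.05 in unstimulated cells (SE 0.106, adjusted p = 4.01e-05 by edgeR) and by 0.47 in stimulated cells (SE 0.0847, adjusted p = 0.0083 by edgeR), all on the log2 scale. Myc itself had log2 fold changes of 3.10 and 3.86 for stimulation without and with PGE2, and of −0.97 (adjusted p = 0.000422 by edgeR) and −0.25 (adjusted p = 0.469 by edgeR) for PGE2 in unstimulated and stimulated cells.

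Without a block, Pvt1 was also the 1 member of 147 whose PGE2 effect differed between the states in a test of the difference. The difference was 0.59 on the log2 scale (SE 0.129, adjusted p = 0.0415 by edgeR), with the lowering by PGE2 smaller in stimulated cells. Over all genes 0.749% passed this test. The call did not hold in 14 of the 16 fits that left out 1 sample, where the adjusted p was 0.0632 to 0.110 at differences of 0.53 to 0.63. Leaving out unstimulated untreated replicate 1 or stimulated PGE2 replicate 4 kept it. With the replicate number as a block, AW112010, AU020206, Gm33104 and Gm33994 were called in this test beside Pvt1. None of the members reached a difference of 1 on the log2 scale with an adjusted p below 0.05 in edgeR, and none did so in DESeq2. An unadjusted edgeR p below 0.05 was found in 20 of 147 members, against 1415 of all 15096 genes tested. The difference was positive in 110 of 147 members, or 74.8%, against 61.4% of all genes, with a median of 0.15 against 0.05.

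Other members that rose with stimulation were 2700038G22Rik, by 2.10 without PGE2 (SE 0.141, adjusted p = 8.30e-08 by edgeR) and 3.05 with it (SE 0.224, adjusted p = 2.02e-06 by edgeR), and Gm17300, by 2.02 (SE 0.229, adjusted p = 6.10e-06 by edgeR) and 2.40 (SE 0.309, adjusted p = 5.51e-05 by edgeR), on the log2 scale. Gm17300 shares 62.6% of its exon bases with Snhg3 on the opposite strand, which had 0.186 CPM. Jpx, an RNA that activates Xist, rose by 0.51 (adjusted p = 0.0185 by edgeR), a call lost with upper-quartile factors (adjusted p = 0.0614 by edgeR) and without unstimulated untreated replicate 2 (0.0705) or stimulated untreated replicate 3 (0.0533). Xist itself had a log2 fold change of 0.05 and Ftx, its neighbour, of 0.13, and neither passed the test (adjusted p = 0.722 by edgeR and 0.261).

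Among the members that fell were abundant nuclear and immune RNAs. Neat1 (ENSMUSG00000092274, chr19:5824708-5845478) had 327, 468, 551 and 492 CPM in unstimulated untreated samples and 115, 161, 211 and 238 CPM after stimulation (log2 fold change −1.21, SE 0.180, adjusted p = 6.63e-05 by edgeR). With PGE2 it had 501, 603, 615 and 597 CPM and, after stimulation, 161, 214, 307 and 353 CPM (log2 fold change −1.03, SE 0.178, adjusted p = 0.000436 by edgeR). Every stimulated sample was below every unstimulated sample of the same treatment. Malat1, which lies beside Neat1 on chromosome 19, did not pass the test, with log2 fold changes of −0.10 (SE 0.121, adjusted p = 0.476 by edgeR) and −0.09 (SE 0.105, adjusted p = 0.454 by edgeR). The libraries were made from polyadenylated RNA, and Malat1 ends in a structure other than a poly(A) tail. Reads were counted per gene, so isoforms of Neat1 were not told apart, and paraspeckles were not measured.

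AW112010 (ENSMUSG00000075010, chr19:11047617-11050566), an interferon- and inflammation-induced transcript of lymphocytes and macrophages, had 398, 343, 362 and 431 CPM in unstimulated untreated and 123, 138, 158 and 199.5 CPM in stimulated untreated samples (log2 fold change −1.17, SE 0.112, adjusted p = 1.41e-06 by edgeR). With PGE2 it had 427 ± 47.2 CPM in unstimulated and 266 ± 76.3 CPM in stimulated samples (log2 fold change −0.54, SE 0.147, adjusted p = 0.00746 by edgeR). The 2 falls differed by 0.60 in the interaction test (SE 0.210, adjusted p = 0.288 by edgeR), a difference that was called with the replicate block. Lockd, a transcript downstream of Cdkn1b, which encodes the cell cycle inhibitor p27, had 37.1 to 43.5 CPM in unstimulated and 7.68 to 12.7 CPM in stimulated untreated samples (log2 fold change −1.82, SE 0.126, adjusted p = 1.02e-07 by edgeR). Cdkn1b, whose start lies 8.69 kb away, fell by 2.60 on the same scale (SE 0.167, adjusted p = 6.17e-08 by edgeR).

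Ifngas1 (ENSMUSG00000112230, chr10:118502035-118556525), a lincRNA beside the interferon-γ gene, moved against its neighbour. It had 8.69, 7.94, 5.22 and 4.19 CPM in unstimulated and 2.33, 2.02, 1.44 and 1.30 CPM in stimulated untreated samples (log2 fold change −1.68, SE 0.281, adjusted p = 0.000166 by edgeR). Ifng, whose start lies 115 kb away, rose by 6.54 on the log2 scale (SE 0.578, adjusted p = 7.08e-07 by edgeR). With PGE2, Ifngas1 fell by 1.41 (SE 0.385, adjusted p = 0.00789 by edgeR) while Ifng rose by 7.49. In the PGE2 comparisons Ifngas1 had log2 fold changes of 0.20 in stimulated and −0.05 in unstimulated cells and did not pass the test.

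The largest falls among DEGs without overlap of the groups belonged mostly to transcripts without a known role. Without PGE2 these were Gm43698 (log2 fold change −2.18), 4932422M17Rik (−2.11), Prr33 (−2.002), 2610035D17Rik (−1.98) and Gm33104 (−1.86), and with PGE2 A430046D13Rik (−1.64), 2610035D17Rik (−1.64), A630023P12Rik (−1.53), Lockd (−1.53) and Ifngas1 (−1.41). 4932422M17Rik shares 61.5% of its exon bases with AI480526 on the opposite strand, another member, which had 15.8 CPM and fell by 1.75, so its value is uncertain. Gm43698 had 7 to 30 counts in the stimulated untreated samples, and its mean reached the 2 CPM limit only with the unstimulated PGE2 samples.

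The responses without and with PGE2 rest on different samples. Of the 107 members called in either stimulation comparison, 83 were called in both, all in the same direction, and 32 of the 45 DEGs in either were DEGs in both. These shares, 77.6% and 71.1%, compare with 79.2% and 66.7% over all genes tested in both comparisons, of which 99.9% of the genes called in both moved the same way.

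**Figure D2:**
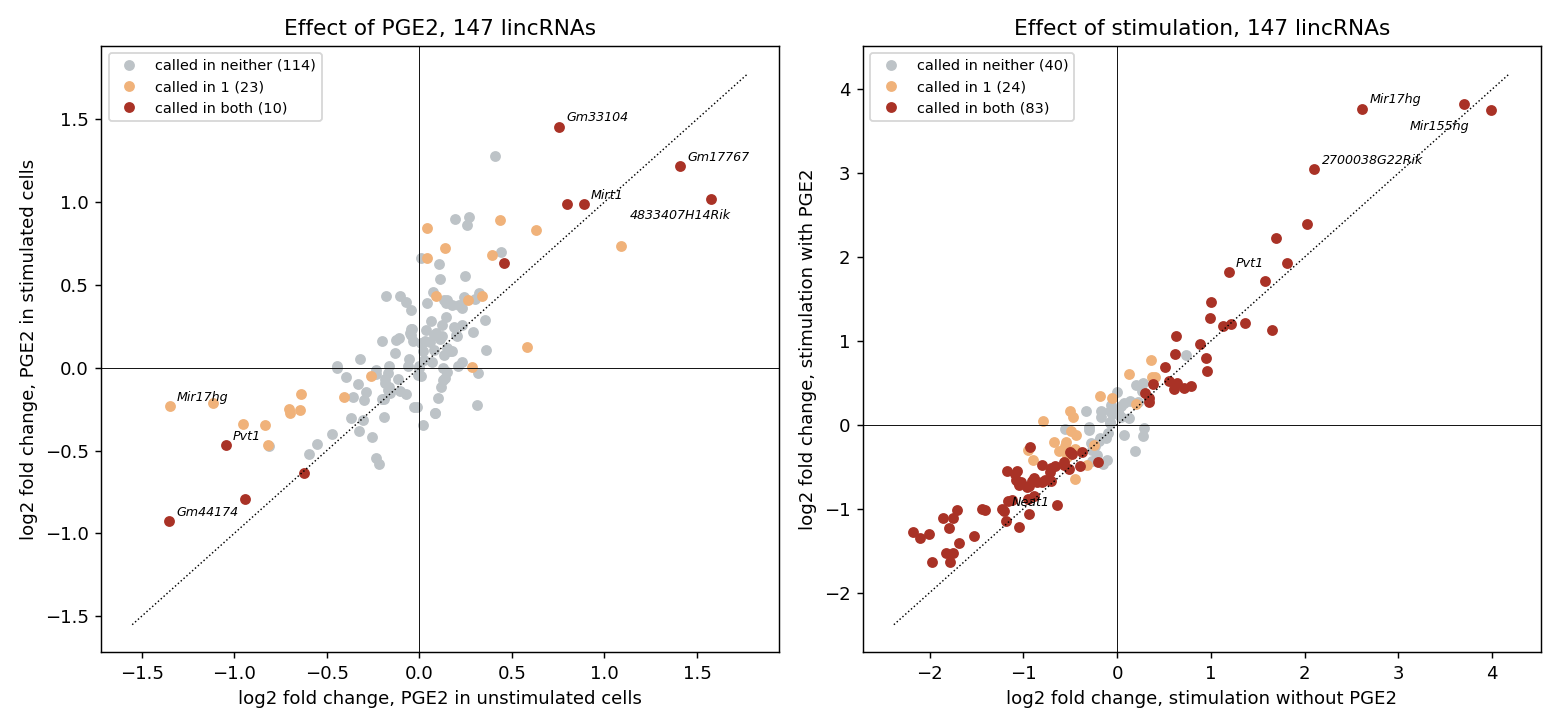
Log2 fold changes of the 147 lincRNAs for PGE2 in stimulated against unstimulated cells (left) and for stimulation with against without PGE2 (right), coloured by the number of the 2 comparisons that called them, with the dotted line of equal effects. The 10 members called for PGE2 in both states and the 83 called for stimulation in both settings lie in the quadrants of equal sign.

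PGE2 changed fewer lincRNAs than stimulation did. In unstimulated cells 12 of 147 rose and 15 fell (edgeR adjusted p below 0.05), against 12.9% and 15.5% of all genes. In stimulated cells 12 rose and 4 fell, against 6.04% and 3.8% of all genes. DEGs were 3 higher and 4 lower in unstimulated cells (1.45% and 1.92% of all genes) and 3 higher and 0 lower in stimulated cells (1.2% and 0.546%). The higher DEGs of both states include 4833407H14Rik, which reached the 2 CPM limit only with the stimulated PGE2 samples. Its rise in stimulated cells is thus in part a result of the selection. In stimulated cells, 49 of 147 members had an unadjusted edgeR p below 0.05, against 3761 of all 13922 genes tested, and DESeq2 also found no lower DEG. The median log2 fold change was 0.02 in unstimulated and 0.09 in stimulated cells, against 0.00 and −0.01 over all genes.

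Same-numbered samples deviated together in both PGE2 comparisons, except for replicate 2 in stimulated cells, and the pairing was thus inferred from the data. With the replicate number as a block 29 members rose and 33 fell in unstimulated cells (23.6% and 24.2% of all genes), and 37 rose and 23 fell in stimulated cells (19.1% and 20.7%). The DEGs numbered 7 and 4 with the block. In stimulated cells the 16 calls without a block also rested on single samples. They numbered 7 without untreated replicate 2 or PGE2 replicate 3, 9 without untreated replicate 1, 10 without untreated replicate 3 and 27 without PGE2 replicate 1. The shares over all genes in these fits are not given here, and whether such changes are particular to lincRNAs was not tested.

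Of the 33 members called for PGE2 in either state, 10 were called in both, or 30.3%, against 21.96% over all genes, and each of these moved the same way. Over all genes called in both states, 99.4% moved the same way. With the replicate block 40 of 82 members were called in both, again each in the same direction. The share over all genes was not computed for the block. Those that rose were 4833407H14Rik, A630023P12Rik, Gm17767, Gm26809, Gm33104 and Mirt1, and those that fell were Gm43672, Gm44174, Gm5547 and Pvt1. Of these, 4833407H14Rik reached the 2 CPM limit only with the stimulated PGE2 samples, and it shares exon bases with Mirt1. The calls of A630023P12Rik were fragile, since that in stimulated cells was lost with no filter on low counts (adjusted p = 0.0602 by edgeR) and in 6 fits without 1 sample (untreated replicates 1, 2 and 4 and PGE2 replicates 2, 3 and 4, adjusted p = 0.0610 to 0.109 by edgeR), and that in unstimulated cells in 4 such fits (untreated replicates 2 and 4 and PGE2 replicates 2 and 3, adjusted p = 0.0751 to 0.0865 by edgeR). Over all 147 members the sign was the same in both states in 78.2%, against 78.5% of all genes.

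Gm17767 (ENSMUSG00000099413, chr1:51507086-51596718) was, with 4833407H14Rik, a DEG in all 4 pairwise comparisons. It had 10.8, 13.8, 15.8 and 19.97 CPM in unstimulated untreated, 40.2, 45.8, 39.3 and 36.6 CPM in unstimulated PGE2, 28.5, 35.0, 38.2 and 38.9 CPM in stimulated untreated and 79.4, 96.6, 93.5 and 67.4 CPM in stimulated PGE2 samples. The treated samples lay above all untreated samples of the same state, and the unstimulated PGE2 samples overlapped with the stimulated untreated ones. PGE2 raised it by 1.41 in unstimulated cells (SE 0.144, adjusted p = 4.30e-05 by edgeR) and by 1.21 in stimulated cells (SE 0.131, adjusted p = 0.000555 by edgeR), and stimulation by 1.36 without and 1.21 with PGE2, on the log2 scale. The difference of the PGE2 effects was −0.18 (SE 0.205, adjusted p = 0.909 by edgeR).

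4833407H14Rik and Mirt1, a transcript named for its rise after myocardial infarction, overlap on opposite strands of chromosome 19 and lie 68.5 and 64.3 kb from the start of Dusp5, the gene of a MAP kinase phosphatase. 4833407H14Rik had 0.485, 0.728, 0.805 and 0.768 CPM in unstimulated untreated and 1.68, 1.87, 2.27 and 2.66 CPM in unstimulated PGE2 samples (log2 fold change 1.58, SE 0.228, adjusted p = 0.000412 by edgeR), and 1.77, 1.75, 2.16 and 2.36 CPM in stimulated untreated and 4.41, 3.95, 4.05 and 4.39 CPM in stimulated PGE2 samples (log2 fold change 1.02, SE 0.147, adjusted p = 0.0027 by edgeR). Its mean reached the 2 CPM limit only with the stimulated PGE2 samples. It shares 67.5% of its exon bases with Mirt1, which is more abundant, and reads of the 2 genes cannot be told apart if the counting ignored strand. Mirt1 rose by 0.89 (SE 0.158, adjusted p = 0.00154 by edgeR) in unstimulated and 0.99 (SE 0.216, adjusted p = 0.0202 by edgeR) in stimulated cells. The latter call was lost without untreated replicate 1 (0.0521) or 2 (0.0684) or PGE2 replicate 3 (0.0639).

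Gm33104 (ENSMUSG00000110902, chr10:19486715-19507311) responded to PGE2 and to stimulation in opposite directions. Its levels were 8.77, 9.95, 13.8 and 10.3 CPM in unstimulated untreated, 17.3, 19.9, 19.9 and 15.98 CPM in unstimulated PGE2, 2.10, 2.47, 3.49 and 2.73 CPM in stimulated untreated and 5.91, 7.02, 9.66 and 7.96 CPM in stimulated PGE2 samples. PGE2 raised it by 1.45 in stimulated cells (SE 0.186, adjusted p = 0.00145 by edgeR) and 0.76 in unstimulated cells (SE 0.134, adjusted p = 0.00148 by edgeR), and stimulation lowered it by 1.86 without and 1.11 with PGE2. The nearest protein-coding start, 105 kb away, is that of Ifngr1, which encodes an interferon-γ receptor chain. Its log2 fold changes were 1.92 and 0.68 for PGE2 in stimulated and unstimulated cells, and −2.53 and −1.25 for stimulation without and with PGE2. The PGE2 effect on Ifngr1 differed between the states by 1.25 (SE 0.204, adjusted p = 0.00682 by edgeR), and that on Gm33104 by 0.71 (SE 0.227, adjusted p = 0.215 by edgeR). With the replicate block the difference in Gm33104 was called.

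The start regions of these 4 transcripts, which PGE2 raised in both states, were examined for 3 sequence motifs bound by cAMP- or activation-responsive factors, because PGE2 acts through cAMP. The motifs were the cAMP response element TGACGTCA, its core TGACG and the AP-1 motif TGANTCA, on both strands, and a full element contains the core. Each sequence runs from 250 bases before to 50 after the start on the strand of the gene (RefSeq, GRCm38.p6), with matches in capitals.
Gm17767, chr1:51596669-51596968, minus strand: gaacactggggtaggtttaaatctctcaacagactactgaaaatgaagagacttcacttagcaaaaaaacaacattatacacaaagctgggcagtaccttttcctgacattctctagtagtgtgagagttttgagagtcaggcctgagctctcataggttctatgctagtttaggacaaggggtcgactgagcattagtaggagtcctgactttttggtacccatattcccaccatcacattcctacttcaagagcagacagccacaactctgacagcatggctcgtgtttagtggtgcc
4833407H14Rik, chr19:53460372-53460671, plus strand: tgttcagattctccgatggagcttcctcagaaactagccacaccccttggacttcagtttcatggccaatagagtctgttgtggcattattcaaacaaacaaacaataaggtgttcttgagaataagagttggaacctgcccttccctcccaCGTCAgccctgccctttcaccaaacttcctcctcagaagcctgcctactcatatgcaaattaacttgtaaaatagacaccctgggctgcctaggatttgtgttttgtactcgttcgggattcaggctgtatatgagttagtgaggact
Mirt1, chr19:53464747-53465046, minus strand: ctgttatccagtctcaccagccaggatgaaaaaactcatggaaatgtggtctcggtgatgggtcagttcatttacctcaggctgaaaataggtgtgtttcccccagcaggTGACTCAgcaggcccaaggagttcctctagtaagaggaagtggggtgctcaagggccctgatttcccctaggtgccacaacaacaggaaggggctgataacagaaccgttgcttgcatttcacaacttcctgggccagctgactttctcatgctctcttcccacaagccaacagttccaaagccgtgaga
Gm33104, chr10:19486465-19486764, plus strand: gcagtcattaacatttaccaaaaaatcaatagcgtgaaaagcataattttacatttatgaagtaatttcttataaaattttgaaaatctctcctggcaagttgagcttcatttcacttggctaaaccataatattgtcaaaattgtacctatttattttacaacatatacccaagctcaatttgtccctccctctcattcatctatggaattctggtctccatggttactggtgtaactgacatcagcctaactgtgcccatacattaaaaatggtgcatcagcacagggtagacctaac
4833407H14Rik held 1 core match and Mirt1 1 AP-1 match, and the other two held none. Of the 147 members 67 had a promoter in the table, of which 53 began within 500 bases of the start in the count table. Among the 67, the full element was found in 3 (4.48%, against 1.79% of all 32851 promoters), the core in 21 (31.3%, against 20.8%) and the AP-1 motif in 7 (10.4%, against 7.81%). A match is a description of these letters and not a bound site.

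Other rises with PGE2 were those of Gm26809, by 0.79 in unstimulated (SE 0.104, adjusted p = 0.00021 by edgeR) and 0.99 in stimulated cells (SE 0.104, adjusted p = 0.000506 by edgeR), and of Gm15473, by 1.09 in unstimulated cells (SE 0.241, adjusted p = 0.00572 by edgeR). Gm15473 starts 0.15 kb from Tes on the opposite strand, and Tes rose by 0.42 (SE 0.0544, adjusted p = 0.000217 by edgeR). Of the members of known role, AW112010 was higher with PGE2 in stimulated cells, at 193, 218, 289.8 and 363 CPM against 123, 138, 158 and 199.5 CPM (log2 fold change 0.72, SE 0.180, adjusted p = 0.0332 by edgeR). The groups overlapped, and the call was lost without untreated replicate 1 (0.0793), 2 (0.104) or 3 (0.0758) or PGE2 replicate 3 (0.0942) or 4 (0.0644). Under the replicate block its adjusted p was 2.98e-06.

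Neat1 had log2 fold changes of 0.32 with PGE2 in unstimulated cells (adjusted p = 0.0788 by edgeR) and 0.45 in stimulated cells (adjusted p = 0.255 by edgeR), with overlapping groups. It was higher in the treated sample of all 4 replicate numbers in both states, and with the replicate block the adjusted p was 5.09e-05 and 2.46e-05. The block also brought Dubr in stimulated cells (0.40, adjusted p = 0.000448 by edgeR), Malat1 in unstimulated cells (0.16, adjusted p = 0.00275 by edgeR), and Lockd in stimulated (0.35, adjusted p = 0.0121 by edgeR) and unstimulated cells (0.14, adjusted p = 0.0449 by edgeR) past the threshold, and AW112010 in unstimulated cells (0.14, adjusted p = 0.0273 by edgeR). Members that it brought past the threshold as lower with PGE2 were Xist in unstimulated (−0.16, adjusted p = 0.00664 by edgeR) and stimulated cells (−0.15, adjusted p = 0.0434 by edgeR), and Epb41l4aos in stimulated cells (−0.23, adjusted p = 0.00476 by edgeR). Dubr without a block rose by 0.27 in unstimulated cells (adjusted p = 0.0408 by edgeR), a call lost in 1 fit of all 16 samples (0.132) and in 5 fits without 1 sample (untreated replicates 1, 2 and 4 and PGE2 replicates 2 and 3, 0.0501 to 0.103).

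Among the other named members, the block brought rises with PGE2 in stimulated cells past the threshold for Gm43698 (1.33, adjusted p = 0.00165 by edgeR), 4932422M17Rik (0.88), Gm15473 (0.76), Prr33 (0.66) and 2610035D17Rik (0.56), the last 4 at adjusted p-values of 0.00339 to 0.00516, and a fall for Gm17300 (−0.49, 0.00692). In unstimulated cells it did so for Gm43698 (0.44, 0.0231), Gm26917 (0.31, 0.000394) and 2610035D17Rik (0.25, 0.00699) as rises and Gm17300 (−0.81, 0.0169), Gm10076 (−0.40, 0.0348) and Gm42047 (−0.16, 0.00652) as falls. For stimulation without PGE2 it did so for Mirt1 (0.28, 0.0198).

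The lowest log2 fold change with PGE2 among the members called in both states was that of Gm44174. It had 22.8, 21.9, 17.7 and 16.3 CPM in unstimulated untreated and 6.58, 8.71, 8.05 and 7.76 CPM in unstimulated PGE2 samples (log2 fold change −1.35, SE 0.136, adjusted p = 3.95e-05 by edgeR), and 9.20, 11.9, 11.0 and 12.6 CPM against 5.53, 6.22, 6.11 and 6.54 CPM in stimulated cells (log2 fold change −0.93, SE 0.110, adjusted p = 0.000958 by edgeR). The groups did not overlap in either state. This short transcript of 141 bases lies on chromosome 6, 20.4 kb from the start of Cd8a, the gene of a CD8 coreceptor chain, which fell by 0.44 (SE 0.0595, adjusted p = 0.000282 by edgeR) and 0.42 (SE 0.0714, adjusted p = 0.00594 by edgeR).

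In unstimulated cells, PGE2 also lowered Mir17hg by 1.35 (SE 0.219, adjusted p = 0.000856 by edgeR) and 2700038G22Rik by 1.12 (SE 0.197, adjusted p = 0.00147) on the log2 scale, with no overlap of the groups. In stimulated cells their log2 fold changes were −0.23 (SE 0.321, adjusted p = 0.661 by edgeR) and −0.21 (SE 0.172, adjusted p = 0.438 by edgeR). The differences between the states were 1.12 (SE 0.430, adjusted p = 0.369 by edgeR) and 0.92 (SE 0.263, adjusted p = 0.152 by edgeR), so a difference between the states was not shown. With the block, Mir17hg in stimulated cells had −0.31 (adjusted p = 0.0496 by edgeR) and Mir155hg −0.21 (adjusted p = 0.034 by edgeR). Without the block Mir155hg had −0.18 in stimulated and 0.10 in unstimulated cells (adjusted p = 0.589 by edgeR and 0.806).

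Further members were called for PGE2 in 1 state without the block, which does not show a difference between the states. In unstimulated cells Gm32856 (−0.83), Gm11707 (−0.82), Gm42595 (−0.70), 4632404H12Rik (−0.65), AU020206 (−0.64) and Gm28875 (−0.26) fell, and Gm26799 (0.63), Gm26532 (0.58), Fam120aos (0.34) and 5031425E22Rik (0.28) rose on the log2 scale. The groups overlapped in 4632404H12Rik, Gm26799 and 5031425E22Rik. In stimulated cells Gm27042 (0.89), Gm33994 (0.84), 4933406I18Rik (0.68), Gm19585 (0.66) and 2310001H17Rik (0.43) rose, each without overlap of the groups. With the block, 8 of these 15 were called in both states, namely, by their adjusted p in stimulated cells, Gm26799 (0.00125), Gm32856 (0.00169), Fam120aos (0.00867), AU020206 (0.0161), Gm11707 (0.0164) and 4632404H12Rik (0.0279), and, by that in unstimulated cells, Gm27042 (0.0234) and 4933406I18Rik (0.0339). Gm44175, called in unstimulated cells, was also called in stimulated cells with the block (−0.33, 0.0275).

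**Figure D3:**
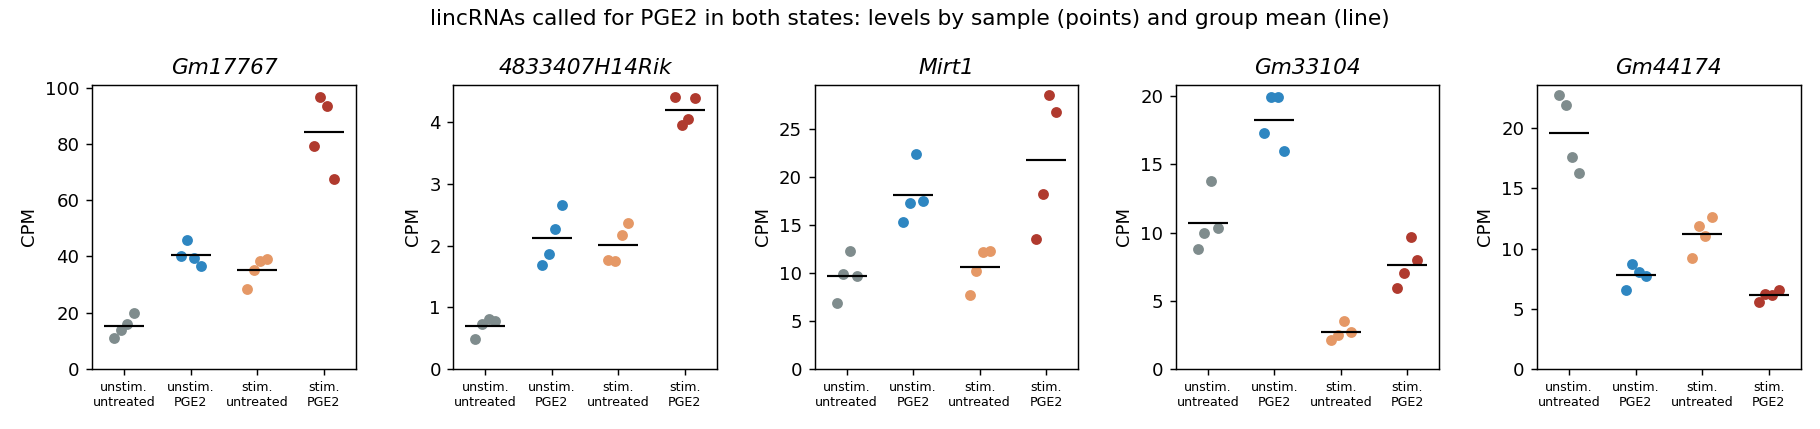
Levels of 5 lincRNAs called for PGE2 in both states, in CPM, with 1 point per sample and a line at the group mean. In each panel the PGE2 samples lie above (Gm17767, 4833407H14Rik, Mirt1, Gm33104) or below (Gm44174) all untreated samples of the same state.

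LincRNAs were compared with the protein-coding gene of the nearest start, since many lie beside coding genes. A coding start lay within 50 kb of 107 members, within 10 kb of 57 and, as a divergent pair, within 1 kb of 17. Within 50 kb, the lincRNA and its neighbour changed in the same direction in 68 of 95 tested pairs (71.6%) for PGE2 in unstimulated cells, 53 of 92 (57.6%) for PGE2 in stimulated cells, 54 of 94 (57.4%) for stimulation without PGE2 and 64 of 95 (67.4%) for stimulation with PGE2. Between neighbouring protein-coding genes that share was 55.3% to 55.8%. Pearson's r of the log2 fold changes across these pairs was 0.48, 0.36, 0.36 and 0.41 in the same order, and 0.17 to 0.20 across coding pairs. Within 10 kb the share was 70.9%, 57.4%, 64.8% and 74.5% in the same order, against 56.2%, 56.7%, 56.9% and 57.3% of coding pairs, and r was 0.52, 0.28, 0.46 and 0.49, against 0.21, 0.25, 0.22 and 0.20. Within 10 kb, the lincRNA pairs for PGE2 in stimulated cells thus lay close to the coding pairs. Within 50 kb their r was 0.36, against 0.20 for coding pairs. The pairs share libraries and sometimes a neighbour, and these values are descriptions without a test. Pairs whose lincRNA shares exon bases with another gene were not set apart, and the use of strand in counting is not given. The part of this in the values was not tested.

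Where both genes of a pair were called, they agreed in direction in 11 of 11 pairs for PGE2 in unstimulated cells, 5 of 5 in stimulated cells, 38 of 53 for stimulation without PGE2 and 33 of 44 with PGE2. The same share was not computed for called pairs of protein-coding genes, so these counts stand without a background. The 11 pairs included Gm39323 with Thy1, the gene of a T cell surface protein (−0.41 and −0.56), Gm12319 with Eno3, which encodes an enolase of glycolysis (−0.70 and −0.72), and both Gm44174 and Gm44175 with Cd8a. For stimulation, A630023P12Rik fell with Galnt9 (−1.75 and −1.96) and Neat1 with Frmd8 (−1.21 and −2.27), whereas Gm17300 rose with Rcc1, which encodes the exchange factor of the GTPase Ran (2.02 and 1.27).

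**Figure D4:**
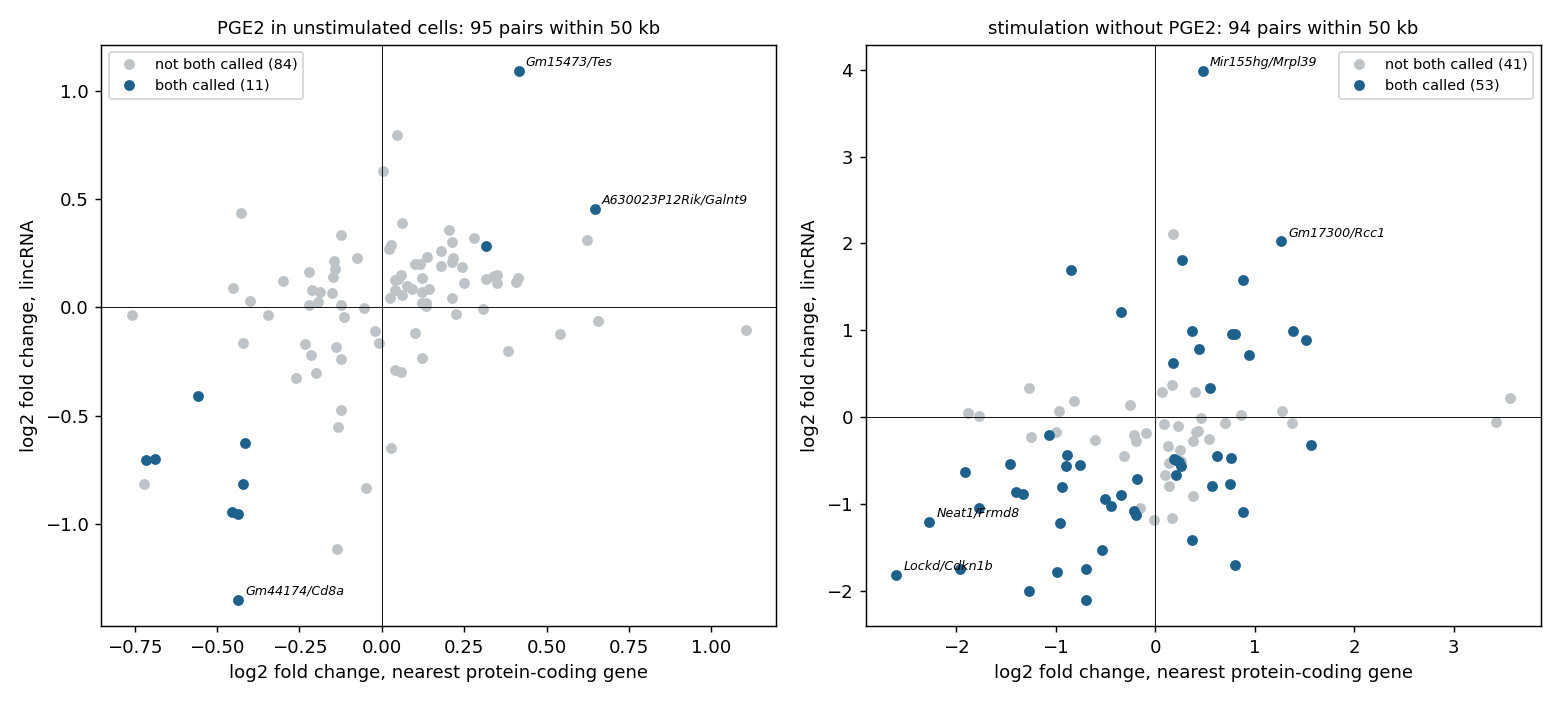
Log2 fold changes of lincRNAs against those of the protein-coding gene of the nearest start within 50 kb, for PGE2 in unstimulated cells (left, 95 pairs) and stimulation without PGE2 (right, 94 pairs), with pairs in which both genes were called in blue. All 11 blue pairs on the left and 38 of 53 on the right lie in the quadrants of equal sign.

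Of 29 genes for proteins that make, bind or degrade such RNAs (paraspeckle proteins, Xist partners, nuclear decay factors, the microprocessor, Integrator and end-processing enzymes), 16 rose and 5 fell with stimulation without PGE2, and 17 rose and 3 fell with PGE2. Over all genes 31.7% rose and 34.8% fell in the first comparison and 32.5% rose and 31.7% fell in the second. Dis3, the nuclease of the nuclear exosome, rose by 1.57 and 2.09, and Elac2, an RNase Z, by 1.59 and 2.13, while Lbr, the lamin B receptor that binds Xist, fell by 1.17 and 1.11 on the log2 scale. These were the DEGs of the list in both settings. With PGE2 12 of 29 fell and 0 rose in unstimulated cells (edgeR adjusted p below 0.05), at a median log2 fold change of −0.13, and 1 fell and 0 rose in stimulated cells. Over all genes 15.5% fell and 12.9% rose in the former and 3.8% fell and 6.04% rose in the latter. Those that fell included Dis3 by 0.80 (SE 0.0923, adjusted p = 9.66e-05 by edgeR) and Elac2 by 0.78 (SE 0.0706, adjusted p = 2.01e-05 by edgeR) in unstimulated cells.

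Levels also followed the replicate number. Replicate 1 had the lowest CPM of its group in all 4 groups in 36 of 147 members (24.5%), against 10.9% of all genes tested, and replicate 4 the highest in 8 members (5.44%), against 6.31%. Gm42047 showed both, at 310.2 to 353 CPM in the replicates numbered 1 and 515 to 625 CPM in those numbered 4. Gm26917 went the other way, at 238 to 490.1 CPM in replicates numbered 1 and 132 to 168 CPM in those numbered 4. The part of this in the results was not tested beyond the blocked values above.

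**Figure D5:**
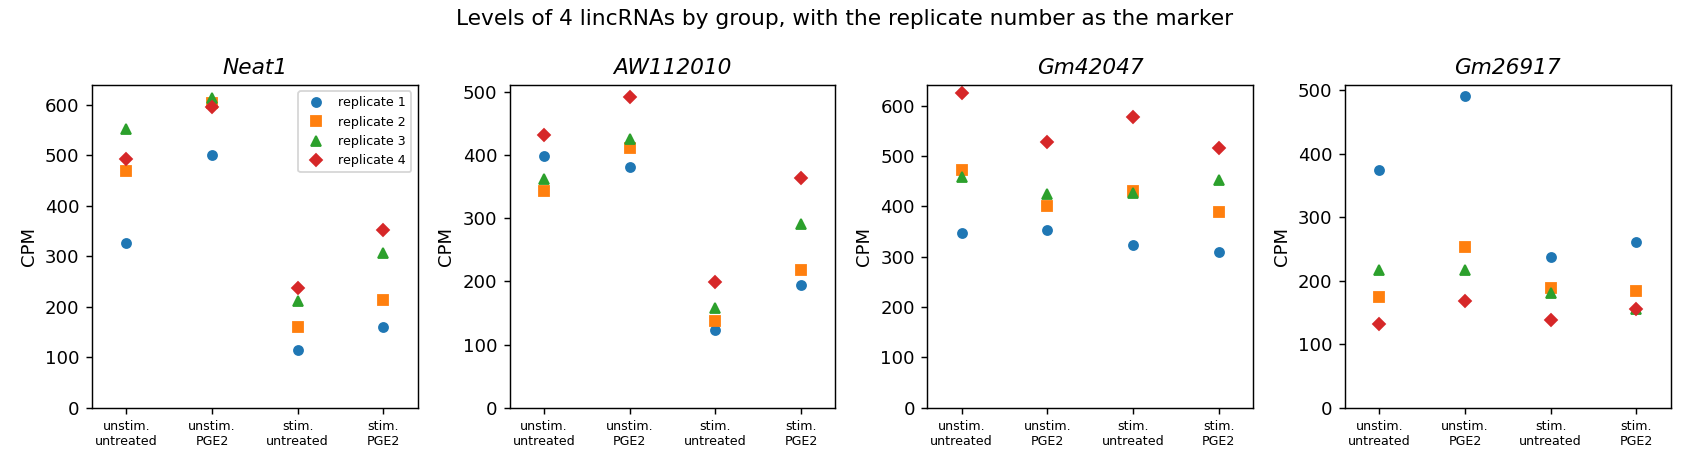
Levels of Neat1, AW112010, Gm42047 and Gm26917 in CPM in the 4 groups, with the marker giving the replicate number. Replicate 1 is lowest in all groups for Neat1 and Gm42047 and highest in all groups for Gm26917.

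Of the rest, 36 of the 147 members passed the test in none of the 4 pairwise comparisons, or 24.5%, against 23.1% of all genes tested in all 4. The highest group mean was that of unstimulated PGE2 cells in 65 members (44.2%), of unstimulated untreated cells in 36 (24.5%), of stimulated untreated cells in 27 (18.4%) and of stimulated PGE2 cells in 19 (12.9%). For protein-coding genes at the same CPM limit these shares were 41%, 18.8%, 29.6% and 10.6%.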

How the data were processed

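RNA-seq of 16 cultures, 4 in each of 4 groups set by the sample labels, was analysed. Per the labels and the study's methods, the authors selected poly(A) RNA, aligned reads to GRCm38 (HISAT2 2.0.5) and counted them per gene (featureCounts 1.5.0-p3), and deposited whole-number counts without normalization. The authors also deposited FPKM, which within a sample equal CPM per kilobase times a factor of 0.878 to 1.11. FPKM served only to compare levels between genes. The annotation release, counting options and use of strand are not given in the sources used here, so the 61 members that share exon bases with another gene (36 over 10%) are uncertain. Exons, neighbours and overlaps came from GENCODE M21 on the same build, which held 146 members.

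Genes were filtered with filterByExpr (minimum count 10), scaled with TMM and tested in edgeR 4.0.16 (R 4.3.3, glmQLFit and glmQLFTest, two-sided, Benjamini-Hochberg over all genes tested), with the 8 samples compared or, for the interaction, all 16. A DEG needed a fold change of 2 or more beside an adjusted p under 0.05. The biological coefficient of variation was 0.115 to 0.139, and chi-square per degree of freedom between replicates 8.46 to 56.8, so spread between replicates exceeded counting error. Samples with the same number deviated from their group means together in both PGE2 comparisons (r 0.190 to 0.423 stimulated, 0.137 to 0.444 unstimulated) and for stimulation without PGE2 (0.112 to 0.359). The highest r with another number was 0.180 to 0.250, 0.0562 to 0.124 and 0.0334 to 0.125 in the same order. Replicate 2 in stimulated cells was an exception, at 0.190 with its own number and 0.212 with another. These comparisons were taken as paired from the data, and blocked values are given where they change the call of a PGE2 or stimulation-without-PGE2 value in the text. For stimulation with PGE2, r was 0.0439 to 0.281 with the same number, and the highest r with another number was 0.0470 to 0.157. Only replicate 2 was lower with its own number, at 0.0439 against 0.0704. Stimulation with PGE2 and the interaction were not taken as paired, although pairing in the other comparisons would extend to both. Members called in the interaction with the block are therefore named as well. The fit was also run on simulated counts with 200 changed genes, drawn from those with higher counts. The simulation had a fixed dispersion and no effect of the replicate number, so it does not cover genes of low count or that effect.

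Members named are those of a list of known lincRNAs, up to 5 largest rises and falls per comparison among DEGs with groups that do not overlap, calls of the interaction, the 5 highest in FPKM, and those next to the 2 CPM limit, together with nearest protein-coding genes. Outside this rule, Gm26809, Gm43672, Gm5547, Gm39323, Gm12319, Gm44175, the further microRNA hosts and the other members called for PGE2 in 1 state were named after their values were seen. The members and lists were chosen with earlier results of these data known. Alternatives were DESeq2 1.42.0, RLE and upper-quartile factors, no filter, the replicate block, leaving out each sample, a limit of 5 CPM (77 members), no fold threshold, 1 fit of all 16 samples and neighbours within 10 kb. Those applied to calls without a fold threshold were chosen after seeing the data.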

Additional observations from a re-analysis of the deposited data

Results flagged for a closer look

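Of 128 groups of 4 samples checked over the 32 named members, 4 held a sample far from the other 3, where chance gives about 1 in 20. Mir155hg had 10.2 CPM in unstimulated untreated replicate 4, against 4.54 to 5.46 CPM in the others. Neat1 had 501 CPM in unstimulated PGE2 replicate 1, against 597 to 615 CPM. 2610035D17Rik had 18.4 CPM in unstimulated PGE2 replicate 1, against 14.02 to 14.7 CPM, and Prr33 15.8 CPM in unstimulated PGE2 replicate 2, against 10.7 to 11.3 CPM. The PGE2 effect on Pvt1 differed between stimulated and unstimulated cells by 0.59 on the log2 scale in the interaction test (SE 0.129, edgeR adjusted p = 0.0415).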

How the results depend on the processing

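The 5 DEG counts kept within 1.5 times of 3 and 7 (PGE2 in stimulated and unstimulated cells), 41 and 36 (stimulation without and with PGE2) and 0 (interaction) under DESeq2, RLE factors, no filter, the replicate block (4, 7, 41, 35 and 0) and, for the first 4, 1 fit of all 16 samples. Upper-quartile factors gave 5 for PGE2 in stimulated cells. They moved the median log2 fold change of all genes for stimulation with PGE2 from 0.00 to −0.13, and that of the members from −0.19 to −0.32. Without the fold threshold the counts were 16, 27, 99, 91 and 1, and at 5 CPM 25 and 21 for stimulation. Leaving out 1 sample gave 2 to 7 DEGs for PGE2 in stimulated cells (2 without untreated replicate 1, 5 without untreated replicate 3 or 4, 7 without PGE2 replicate 1) and 0 to 1 for the interaction (1 without stimulated PGE2 replicate 4).

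Members called at an adjusted p alone for PGE2 in stimulated cells were 31 with DESeq2, 32 in 1 fit of all 16 samples, 60 with the replicate block and 7 to 27 with 1 sample left out. In unstimulated cells the block gave 62, and leaving out 1 sample 20 to 35. For DESeq2, 1 fit of all 16 samples and leaving out 1 sample, the shares over all genes are not given here. The interaction gave 0 with RLE factors, upper-quartile factors and no filter, 5 with the block (Pvt1, AW112010, AU020206, Gm33104 and Gm33994, although the numbers were not taken as paired throughout) and 0 to 2 with 1 sample left out.

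Of 69 called values of named members, 69 kept their call and direction under DESeq2 and 69 under the replicate block, and none reversed under any alternative. Calls lost were 1 with RLE factors (Pvt1 interaction, adjusted p 0.0664), 2 with upper-quartile factors (Pvt1 interaction 0.0560, Jpx 0.0614), 2 with no filter (Pvt1 interaction 0.100, A630023P12Rik 0.0602) and 1 in 1 fit of all 16 samples (Dubr 0.132). Leaving out 1 sample lost the call in 39 of 560 fits.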
